A study of Drosophila melanogaster with 16 samples.

Results

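The transcripts described here are those whose intensity was at least 2-fold higher in both replicates of sple mutant brains than in either replicate of control brains. They were chosen by their measured values: for each transcript the lower of the 2 sple replicate means had to exceed the higher of the 2 control replicate means by at least 1 log2 unit. The rule took 38 of 16637 measured transcripts, or 0.228%. The difference between the genotypes is therefore given below as a description and was not tested in these transcripts.

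RNA from adult Drosophila melanogaster brains was measured on single-colour arrays. Sple flies carried pk sple1, which the labels describe as a spontaneous mutation of prickle-spiny legs, and were labelled bang sensitive, a term for flies that seize or become paralysed after a mechanical shock. Controls were of the Oregon-R line, with a brown body and red eyes. Each genotype had 2 biological replicates, and each replicate was read on 4 technical arrays, which makes 16 arrays in all. The labels do not give age in days, sex or the number of brains pooled. They also do not say whether the lines share a genetic background, so the allele and the background cannot be told apart. In whole brains, a change in the number of cells of a type and a change in RNA per cell cannot be told apart either.

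The gene prickle encodes a core component of planar cell polarity, the signalling system that orients cells and their hairs and bristles within the plane of an epithelium. It gives rise to a Prickle and a Spiny-legs protein isoform from alternative promoters. In neurons of the fly, the balance of these isoforms is known to affect the orientation of microtubules and the transport of vesicles along axons, and mutants that lack the Spiny-legs isoform are prone to seizures. None of this background is a result of these arrays.

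The deposited table names transcripts by FlyBase transcript ID alone. Of its 21051 IDs, 49 could be paired with a gene through the gene table used here. The 38 raised transcripts included 0 of these 49, so no gene name or function is given to any of them, and they are called by their rank in separation between the genotypes, 1 being the widest. Only those ranked 1 and 2 are given by ID. For the same reason, 0 of 89 genes in 17 lists of pathway genes and cell type markers could be found among the transcripts. The identity of the tissue was not checked against markers, and the transcript of prickle itself is not reported here.

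FBtr0086133 stood widest apart. Its mean intensity was 753 in control replicate 1 and 1383 in control replicate 2, and 16918 and 13028 in sple replicates 1 and 2. Each value is the geometric mean of 4 arrays, on the linear scale of the deposited table. The 8 control arrays ran from 663 to 1522 with a median of 1080, and the 8 sple arrays from 12569 to 17196 with a median of 15071. The replicates were ordered in opposite ways in the genotypes, with the lower control being replicate 1 and the lower sple replicate being replicate 2, and no sple array came near a control array. The log2 difference, sple minus control, was 3.86, and the nearest replicates were 3.24 log2 units apart. The standard error from limma was 0.36 (n = 2 per genotype). It is moderated, which means drawn toward the spread of all measured transcripts, and is not the spread of these replicates alone.

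The second by separation was FBtr0088838, the brightest of all 38 in sple replicate 1. Its intensity was 1717 and 2481 in control replicates 1 and 2, and 19219 and 14770 in sple replicates 1 and 2. Control arrays ran from 1607 to 2558 with a median of 2107, and sple arrays from 14003 to 20777 with a median of 16602. As in FBtr0086133, control replicate 2 was the higher control and sple replicate 1 the higher sple replicate, and the genotypes did not overlap on any array. The log2 difference was 3.03 with a moderated standard error of 0.27 (limma, n = 2 per genotype). Both transcripts were picked as the widest on this contrast, which these errors do not allow for. In sple brains this transcript reached the 87.5th percentile of measured transcripts, against the 38.8th in control brains.

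The transcript ranked 3 had close replicates in both genotypes, at 1309 and 1746 in the controls and 10052 and 9568 in sple. In the one ranked 8, the sple replicates were nearly equal, at 5676 and 5682, while the controls were unequal at 525 and 1650. Of the 38 transcripts, 1 was separated by at least 8-fold, 6 by at least 4-fold and 15 by at least 1.5 log2 units. The last 2 transcripts inside it were separated by 1.00 and 1.01 log2 units, and the first 2 outside it by 0.99 log2 units each.

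**Figure D1:**
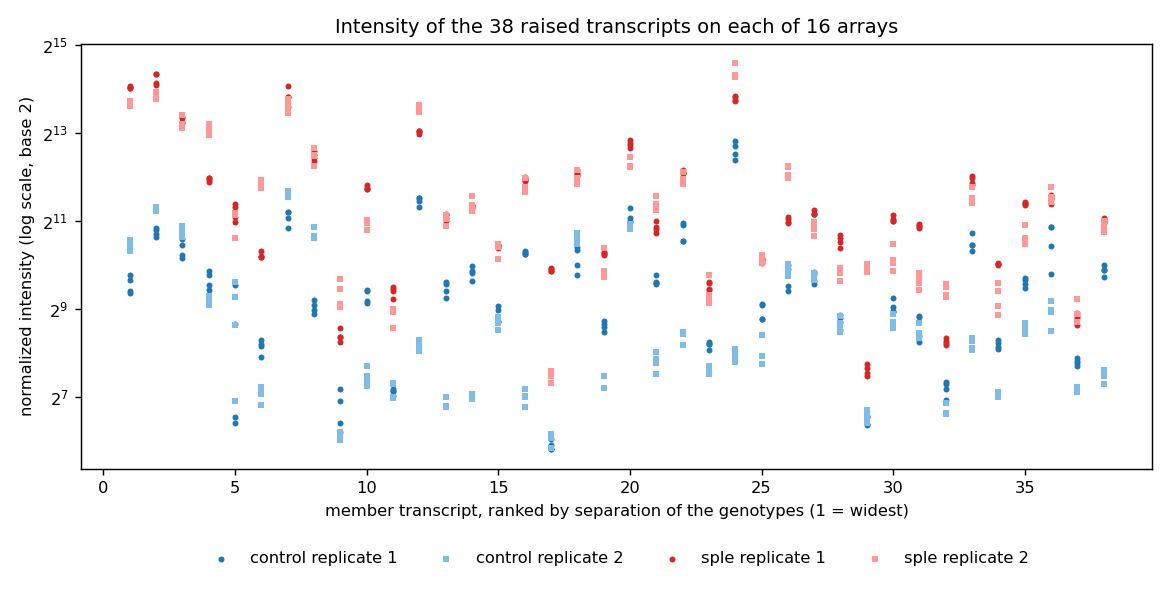
Normalized intensity (vertical axis, log scale of base 2) of each of the 38 raised transcripts on every array; transcripts are ranked by separation on the horizontal axis, circles are replicate 1 and squares replicate 2 of each genotype, and each symbol is 1 technical array. All sple symbols of a transcript lie above all its control symbols. In 15 transcripts the mean of control replicate 2 is at least 2-fold below that of control replicate 1, though single symbols can lie closer.

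The single arrays followed the replicate means that the rule used. In 38 of the 38 transcripts all 8 sple arrays lay above all 8 control arrays, a pattern held by 2.22% of measured transcripts. In 18 of the 38 even the nearest pair of arrays was at least 2-fold apart, which held for 0.108% of measured transcripts. The narrowest distance between arrays of the 2 genotypes was 0.53 log2 units, in the transcript ranked 36, and the median was 0.97. These shares use the same contrast as the rule and are not separate evidence of a difference.

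Over the 38, the median log2 difference was 2.33, a 5.04-fold difference, with a range from 1.29 to 3.86. Over all measured transcripts the median was -0.02. The median intensity of the raised transcripts was 729 in control replicate 1 and 289 in control replicate 2, against 2254 and 2020 in the sple replicates. The sple replicates were thus close in their median, at 11.14 and 10.98 on the log2 scale, whereas the control medians lay farther apart, at 9.51 and 8.18. Over all measured transcripts, the corresponding medians were 4586 and 4468 in control and 4508 and 4341 in sple.

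All 38 were below the median level in the mean of the 2 control replicates. They lay there between the 0.072 and the 41.6 percentile, with a median at the 25.0 percentile. In sple brains their levels spread from the 25.1 to the 88.3 percentile, with a median at the 39.4 percentile, and 29 of 38 still lay below the median level. By comparison, the 10 transcripts at least 2-fold lower in both sple replicates (0.0601% of those measured) included 4 below the median level in control, and their median control level was at the 82.9 percentile. In a single replicate this need not hold: the transcript ranked 24, at 6268 in control replicate 1, lay above that replicate's median over all measured transcripts, 4586. How far low signal over background shaped the choice of raised transcripts was not tested. The rule also used the control values. A low control level is therefore partly built into the choice of the raised transcripts, and a high one into that of the lowered.

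**Figure D2:**
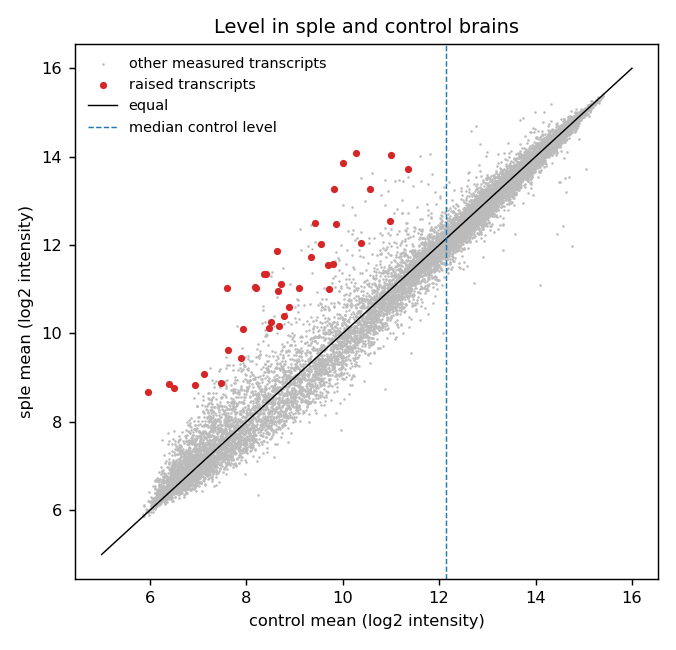
Mean log2 intensity in sple brains (vertical axis) against control brains (horizontal axis), each the mean of 2 replicates, for the 38 raised transcripts in red and all other measured transcripts in grey; the solid line marks equal levels and the dashed line the median control level. Every red point lies left of the dashed line, and their sple levels reach from the 25.1 to the 88.3 percentile. The red points were chosen by these same control and sple values.

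The raised transcripts differed among themselves in how the 2 control replicates compared. This grouping was made after their values were seen. In 15 of 38, or 39.5%, control replicate 1 was at least 2-fold above control replicate 2, which held for 2.19% of all measured transcripts. The reverse order at that size occurred in 1 raised transcript, the one ranked 8, and the controls of the other 22 lay within 2-fold of each other. The 2.19% is over all intensity levels, and no share at the low control levels of the raised transcripts is given.

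In the 15 transcripts with unequal controls, the median intensity was 903 in control replicate 1 and 174 in control replicate 2, and 2708 and 2674 in sple replicates 1 and 2. By the rule and this grouping, control replicate 1 had to lie between control replicate 2 and the sple replicates in these transcripts. The widest example ranked 24, at 6268 and 246 in control replicates 1 and 2 and 14151 and 21087 in sple replicates 1 and 2. Control replicate 1 was 25.5-fold above control replicate 2 there, a larger distance than that between control replicate 1 and either sple replicate. The transcript ranked 12 had the same form, with 2816 and 285 in the controls and 8341 and 11934 in sple, as did the one ranked 16, with 1243 and 127 in the controls and 3969 and 3508 in sple. Of the 10 transcripts with the widest separation, 2 were among these 15. Their separation is set by control replicate 1, and its median was 1.22 log2 units, whereas their median log2 difference between genotype means was 2.47.

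Control replicate 2 was at least 2-fold below each of the other 3 replicates in 160 measured transcripts. The 15 raised transcripts fall among these by the rule and the grouping, and made up 9.38% of them. What set this replicate apart in them was not tested. With control replicate 2 left out, 82 transcripts met the rule, including the 38, and with control replicate 1 left out 210 did.

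In the 22 transcripts with controls within 2-fold, the median intensity was 479 and 406 in control replicates 1 and 2, and 1983 and 1226 in sple replicates 1 and 2. Their log2 differences ran from 1.29 to 3.86 with a median of 1.84. They held 7 of the 10 widest separations. In 5 of the 22 both pairs of replicates agreed within 0.5 log2 units, a closeness that 64.0% of all measured transcripts reached. These 5 ranked 3, 15, 18, 20 and 27. The transcript ranked 15 measured 468 and 412 in the controls and 1377 and 1324 in sple. Ranked 18, another measured 1121 and 1570 in the controls and 4359 and 4064 in sple. In each of the 5, sple replicate 1 was the higher sple replicate.

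The sple replicates disagreed by at least 2-fold in 7 of the 38 transcripts. In 5 of these replicate 2 was the higher and in 2 replicate 1 was. Over all measured transcripts, sple replicate 2 was at least 2-fold higher than replicate 1 in 6.72% and at least 2-fold lower in 4.10%. The transcript ranked 17 was near the bottom of the scale in control brains, at 59.3 and 66.3, where the lowest intensity above the floor of the table was 54.84. It measured 949 in sple replicate 1 and 177 in sple replicate 2, a 5.35-fold difference within the mutant genotype. The one ranked 29 ran the opposite way, at 88.4 and 92.2 in the controls, with 195 and 980 in sple replicates 1 and 2. For both, the lower sple replicate decided how far the genotypes were apart. Their control values lie so near the lowest intensity measured that no exact fold against control is given for them.

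Without regard to size, control replicate 1 was above control replicate 2 in 26 of 38 raised transcripts (68.4%) and in 47.3% of all measured ones. Sple replicate 1 was above sple replicate 2 in 24 of 38 (63.2%) and in 53.3% of all. In the 38 the median size of the difference between replicates was 0.73 log2 units for control and 0.38 for sple. Over all measured transcripts, without matching for intensity level, the order was the other way round, 0.17 for control and 0.29 for sple.

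**Figure D3:**
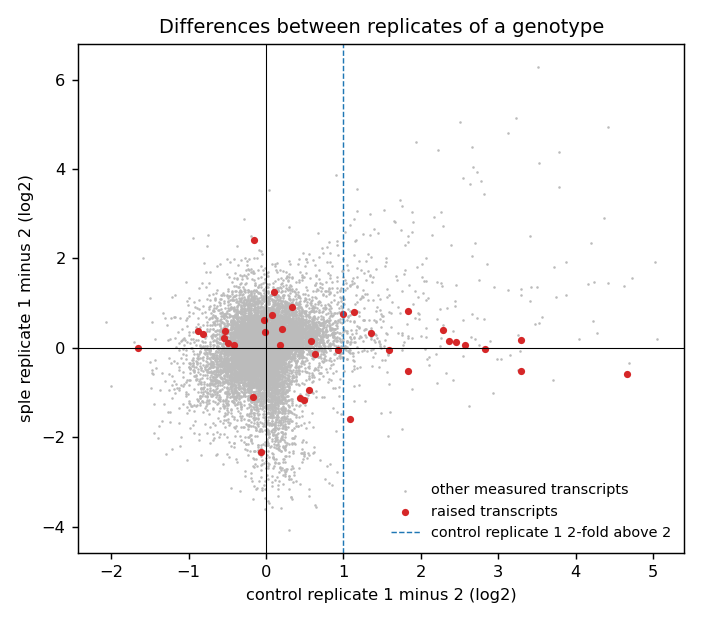
Difference between replicates 1 and 2 of sple (vertical axis, log2) against the same difference in control (horizontal axis, log2) for the 38 raised transcripts in red and the other measured transcripts in grey; the dashed line marks control replicate 1 at 2-fold above control replicate 2. On the right of the dashed line lie 15 red points, between -1.60 and 0.82 on the vertical axis, and 1 red point lies more than 2-fold to the left of 0.

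Technical arrays of a replicate lay closer together than the replicates of a genotype, whose median SD in the 38 was 0.63 log2 units. The median SD over the 4 arrays of a raised transcript was 0.15 and 0.13 log2 units in control replicates 1 and 2, and 0.06 and 0.14 in sple replicates 1 and 2. For all measured transcripts these SDs were 0.11 and 0.07 in control, and 0.06 and 0.09 in sple. In the transcript ranked 5 the arrays were widely spread. On the 4 arrays of control replicate 1 it measured 84.8, 93.4, 746 and 407, and on those of control replicate 2 it measured 121, 617, 779 and 400. Its sple arrays ran from 1565 to 2703, with a median of 2217. The arrays numbered 1 were low in both controls, and the genotypes were still apart on every array.

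Choosing transcripts on 2 technical arrays per replicate and reading them on the other 2 showed how much of the choice depends on the arrays. Arrays 1 and 2 gave 57 transcripts, of which 26 were again at least 2-fold apart on arrays 3 and 4, 45 were apart by any distance, and the lowest separation was -1.38 log2 units, a reversal of the nearest replicates. Arrays 3 and 4 gave 35 transcripts, of which 26 were again 2-fold apart on arrays 1 and 2 and 34 were apart by any distance. Of the 38 raised transcripts, 34 passed on arrays 1 and 2 alone and 30 on arrays 3 and 4 alone. Over all 16637 measured transcripts, 57 and 35 passed. The 38 were chosen on all 4 arrays together, so their counts are partly built into the choice. Both pairs of arrays read the same RNA, so reading on the other pair repeats the measurement and not the comparison between flies.

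**Figure D4:**
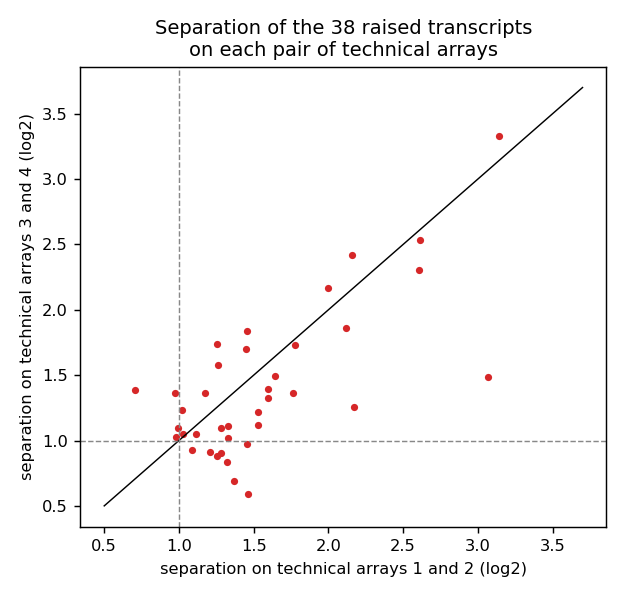
Separation between the nearest sple and control replicates of the 38 raised transcripts, in log2 units, computed from technical arrays 1 and 2 (horizontal axis) and from technical arrays 3 and 4 (vertical axis); the solid line marks equality and the dashed lines the 2-fold limit. Of the 38 points, 34 lie at or beyond the limit on arrays 1 and 2 and 30 on arrays 3 and 4. Both pairs of arrays went into the choice of the 38. The point far below the line at the right is the transcript ranked 5.

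Some raised transcripts had neighbouring IDs. In 3 pairs the ID numbers were 1 or 2 apart. Whether the transcripts of a pair come from 1 gene, or share probes, is not stated in the labels or the table. Both transcripts of the pair ranked 24 and 14 had control replicate 2 far below control replicate 1, the second at 903 and 127 in the controls and 2580 and 2621 in sple. The pair ranked 22 and 38 had the same form, at 1705 and 333 against 4432 and 3958, and at 941 and 171 against 2068 and 1887. The pair ranked 27 and 18 had close controls, with 838 and 846 in the first, and sple values of 2323 and 1814.

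Most other neighbours by ID number did not share the difference. Another 51 measured transcripts had an ID number next to that of a raised transcript. In 8 of them (15.7%) both sple replicates lay above both controls, which held for 10.1% of all measured transcripts. In 15 both lay below, and in 28 the genotypes overlapped. No share over all measured transcripts is given for either of these counts. The median log2 difference of the 51 was 0.00041. The form with control replicate 2 at least 2-fold below every other replicate was found in 5 of the 51 and in 0.962% of all measured transcripts.

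A limma fit over the whole table made 0 calls at an adjusted p under 0.05 and had a smallest adjusted p of 0.9997. At an unadjusted p under 0.05 it had 413 transcripts, 173 of them (1.04% of those measured) higher in sple, and nothing is read from this for the raised transcripts, which were chosen on the same contrast. A fit of all 16 arrays with the biological replicate as a random effect called 111 of 16637 transcripts. Of these, 81 were higher and 30 lower in sple, and 35 were raised transcripts chosen on this contrast. That fit takes repeat reads of the same RNA as observations, with a correlation within a replicate that is shared by all transcripts. Its count is therefore not one over independent flies. An exact two-sided permutation test of 2 replicates against 2 cannot give a p below 0.333, so no single transcript can be called by it.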

How the data were processed

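The deposited table holds a normalized intensity on a linear scale for each transcript and array. Per the submitters' processing notes the authors used RMA, whose version is not stated there, nor are the platform and annotation. RMA commonly yields log2 values, and how these came to a linear scale is not stated. The lowest value, 27.42, was held by 4414 transcripts on all 16 arrays. These were left out, which left 16637 measured transcripts.

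From these values log2 was taken without an added constant, and the 4 technical arrays of a biological replicate were averaged, so n = 2 per genotype. Whether the replicates came from separate flies or cultures is not stated beyond the word biological. Groups were taken from the sample titles. The fit over all measured transcripts used limma 3.58.1 (R 4.3.3) with Benjamini-Hochberg adjustment. A check of the fit on simulated data concerned the size of the estimated differences and set no condition on the number of calls. Values were summarised with Python 3.11.15 and pandas 2.3.3. Separation means the lower sple minus the higher control replicate mean. IDs were matched to genes by the synonyms in RefSeq's genes for the assembly Release 6 plus ISO1 MT.

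The rule for the raised transcripts, the gene lists and the alternatives were chosen with earlier results of these data known. By the rule for names, any raised transcript with a gene name would be named, and otherwise the 2 widest in separation by ID. Other transcripts are given by rank, and those singled out were chosen after their values were seen. Alternatives changed the technical arrays, the replicates, the normalization, the filter, the 2-fold limit and the fit. With 2 biological replicates a genotype, their number sets the precision.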

Additional observations from a re-analysis of the deposited data

Results flagged for a closer look

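Among 156 sets of 4 technical arrays, made of the 38 raised transcripts and their median in each of 4 replicates, 5 held an array far from the other 3, measured as the gap to the nearest array over the whole range. Chance gives about 1 in 20, or 7.8 sets. In control replicate 2 the gap was 0.939 of the range for the transcript ranked 19, 0.847 for the one ranked 22 and 0.923 for the one ranked 32. It was 0.855 for the transcript ranked 24 in sple replicate 2 and 0.940 for the one ranked 27 in sple replicate 1. It cannot be made over 2 biological replicates.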

How the results depend on the processing

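The 38 raised transcripts became 33 to 42 when 1 technical array number was left out, and 36 with the median over technical arrays, 37 with averages on the linear scale, 43 after quantile normalization and 45 after median centring. Of the 38, 31 to 36 were kept without 1 technical array number and all 38 after either normalization. Leaving out 1 biological replicate can only keep or add transcripts, and gave 82 to 715 (715 without sple replicate 1, 210 without control replicate 1, 146 without sple replicate 2). Over all settings that left out an array number or replicate, the median log2 difference of the transcripts taken ran from 1.57 (without control replicate 2) to 2.41, and was 1.64 without sple replicate 1. A limit of 1.5-fold took 114 transcripts with a median log2 difference of 1.67, and one of 3-fold took 11. Among transcripts above the median level 3 were taken, with a median of 3.03, since 35 of the 38 were not tested there. The log2 difference without 1 biological replicate ran from 3.42 to 4.30 for FBtr0086133 and from 2.76 to 3.29 for FBtr0088838. The 15 transcripts with control replicate 1 at least 2-fold above replicate 2 became 50 of 114 at the 1.5-fold limit, 2 of 11 at 3-fold, 1 of 3 above the median level, 19 after quantile normalization and 20 after median centring, and 13 to 19 with other summaries or subsets of the technical arrays. With limma, the replicate number as a replicate block gave 0 calls (661 at an unadjusted p under 0.05), leaving out each replicate gave 0 (the single replicate left was taken to vary as the other genotype does), and all 16 arrays with a random effect gave 111. The deviations of replicates that share a number correlated at 0.26 across transcripts. There are 2 such pairs, no label ties them to a batch, and they are taken to share only a number. Where a count moved, the cause was not tested beyond the fewer transcripts or replicates compared. Signal over background may limit the dimmest transcripts, which was not tested.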

Other observations

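Technical arrays of the same number moved together in opposite directions in the 2 genotypes for a set of transcripts that held 1 of the raised ones. In control replicate 1, 105 of 16637 measured transcripts were at least 2-fold higher on arrays 3 and 4 than on arrays 1 and 2, and 0 were at least 2-fold lower. The other 3 replicates were not used to find the 105. In control replicate 2, 105 of the 105 were higher on arrays 3 and 4, by a median of 0.36 log2 units. In the sple replicates the direction was the opposite, with 1 of the 105 higher on arrays 3 and 4 in replicate 1 (median difference -0.35 log2 units) and 2 higher in replicate 2 (median difference -0.60), and the rest lower. Over all measured transcripts, the same median differences were -0.005 in control replicate 2, and 0.011 and 0.002 in sple replicates 1 and 2. The raised transcript among the 105 is the one ranked 5, whose arrays are given above. Of 31 transcripts that met the rule on arrays 1 and 2 and not on arrays 3 and 4, 11 were among the 105. The labels give the technical array numbers no meaning beyond their order.

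Raised transcripts were unevenly spread over ID numbers, which were looked at after the members were known. They fell in 19 blocks of IDs that share their first 4 digits. The block FBtr0088 held 7 of the 38 (18.4%) and 4.13% of the measured transcripts, and 2 of the 10 transcripts lowered in both sple replicates. The next blocks, FBtr0075, FBtr0076 and FBtr0086, held 3 raised transcripts each, and FBtr0076 held 3 of the 10 lowered ones. Relative to its size FBtr0091 held slightly more, with 2 raised transcripts or 1.13% of its measured IDs, against 1.02% in FBtr0088. In FBtr0088, 3 IDs of the table could be paired with a gene, each on chromosome arm 2R, and none of them was a raised transcript. The paired IDs of FBtr0086 and FBtr0087 were also on 2R, and those of FBtr0076 on 3L. An ID number is not a position, and where the 7 transcripts lie was not analysed here. Of the 7, those ranked 2, 11, 13, 18, 26, 27 and 30, only the one ranked 13 had control replicate 1 at least 2-fold above control replicate 2.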
